A study of Actinidia chinensis with 4 samples.

Results

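This account covers the 105 gene models that were much more abundant in the outer than in the inner pericarp of kiwifruit (Actinidia chinensis cultivar Hongyang), out of 39761 gene models counted. The members were chosen on their measured levels in these same libraries. A gene model was a member when its mean level in outer pericarp was at least 5 CPM (counts scaled to a common library total, per 1000000 counts), that mean was at least 4 times the mean in inner pericarp, and the lower outer library lay above the higher inner library. The difference between the tissues is therefore what defines the set, and its size is given below as a description. Fruit grown under natural conditions was taken at 90 days after anthesis, and 2 RNA-seq libraries were made from each tissue. The labels give the same cultivar and stage for all 4 libraries, and no treatment. Nothing in the labels tells whether the libraries of a tissue came from separate fruits or from pooled fruit, so the spread between them may be technical. The study was set up to look for regulators of red pigmentation in the inner pericarp.

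The outer pericarp of a kiwifruit is the broad zone of flesh between the skin and the ring of seed-bearing locules. The inner pericarp holds those locules and surrounds the pale core. In red-centred cultivars such as Hongyang, anthocyanins colour the inner pericarp, and the structural genes of anthocyanin synthesis are switched on by complexes of MYB and bHLH transcription factors. The counts come with identifiers and no gene names, so no member is given a function here. Markers of skin, chloroplasts, seed or pigment could not be looked up, and the labelled tissues were not checked against them. At most 2 members are named by identifier, and the others are described by their rank, counted from 1 for the member with the most reads in outer pericarp.

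The inner pericarp libraries totalled 5668276 and 5789006 counts, and the outer ones 5677770 and 5228147. These totals leave out Ach00g022471.2, which had 0 counts in inner pericarp replicate 1 and 837018 in inner pericarp replicate 2. In the outer libraries it had 939209 and 771945 counts. Of the gene models, 14244 reached a mean of 5 CPM in outer pericarp, and the members were 0.737% of these. Intervals given for counts are exact 95% intervals on the counts as measured and cover counting error only. Where a floor is named, summed inner counts under 3 were taken as 3, and the intervals do not use it.

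Outer pericarp devoted about 3% of its reads to the members, and inner pericarp well under 1%. The members took 3.15% and 3.18% of the counts in the outer libraries, a mean of 3.16% ± 0.0199 (SD, n = 2). In inner pericarp they took 0.483% and 0.621%, a mean of 0.552% ± 0.0971 (SD, n = 2). A small number of gene models carried these reads. The 4 members at 1000 CPM or more accounted for 84.6% and 84.3% of the members' counts in the outer libraries, and the 10 highest for 91.3% and 92.6%. Without those 4, the other members took 0.493% ± 0.0103 of the counts in outer pericarp and 0.0837% ± 0.00444 in inner pericarp (SD, n = 2). In whole tissue, fewer cells that express a gene and less of its RNA in each cell cannot be told apart.

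**Figure D1:**
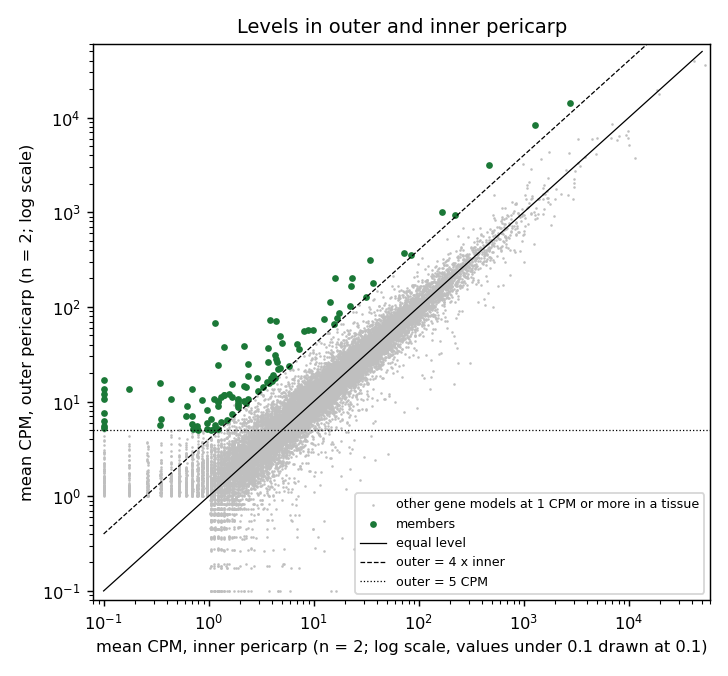
Mean CPM in outer pericarp against mean CPM in inner pericarp, both on log axes, for gene models at 1 CPM or more in a tissue (n = 2 libraries each). The 105 members lie above the line at 4 times the inner level and the line at 5 CPM, and 4 of them stand at 1000 CPM or more in outer pericarp.

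The member with the most reads was Ach00g326791.1 (identifier group 00, coding length 615 bases). Its counts were 13529 and 18248 in the inner libraries and 77697 and 76336 in the outer libraries. Its level was 2770 ± 541 CPM in inner and 14143 ± 648 CPM in outer pericarp (SD, n = 2). Both outer libraries thus held it far above both inner libraries, yet it was also plentiful in inner pericarp. The outer level was 5.11 times the inner level, and the fitted log2 fold change was 2.29 ± 0.13 (SE, edgeR). By itself it supplied 43.5% and 46.0% of the members' counts in outer pericarp.

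The members ranked 2 to 4 had slightly higher ratios at lower levels. The second, of 936 bases, stood at 1049 and 1503 CPM in the inner libraries and at 8532 and 8251 CPM in the outer ones. The third, of 1434 bases, stood at 390 and 551 CPM in inner and 3401 and 2902 CPM in outer pericarp. The member ranked 4, with a coding length of only 228 bases, was at 140 and 196 CPM in inner and 1018 and 1017 CPM in outer pericarp. For these 3 the outer mean was 6.58, 6.69 and 6.07 times the inner mean. Reads also depend on the length of a transcript. Per kilobase of coding length the members ranked 3 and 4 change places, at 2198 and 4462 CPM per kilobase in outer pericarp, while Ach00g326791.1 remains highest at 22996 and the second member follows at 8965. These 4 members were also the only ones at 1000 CPM per kilobase or more.

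Of all 75 gene models that reached 1000 CPM in outer pericarp, they made up 5.33%. Members were 0.748% of the 1471 between 100 and 1000 CPM, with 11 of them, and 0.441% of the 5900 at 20 to 100 CPM, with 26. At 10 to 20 CPM there were 33 members (0.923% of 3574), and at 5 to 10 CPM 31 (0.962% of 3224). The median member stood at 14.6 CPM in outer pericarp, against 21.3 CPM for all gene models at 5 CPM or more there.

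**Figure D2:**
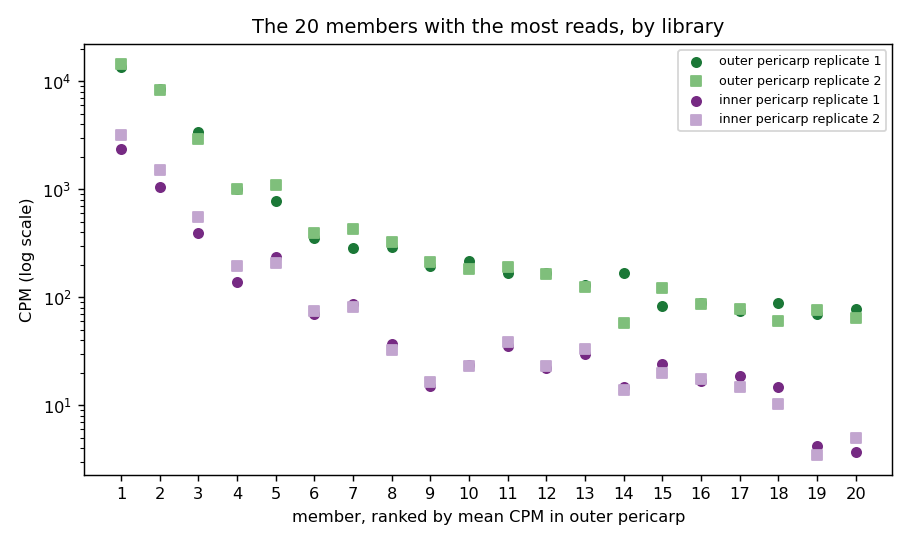
CPM on a log axis in each of the 4 libraries for the 20 members with the most reads in outer pericarp, from rank 1 at the left; each point is 1 library. The outer libraries lie above the inner libraries at every rank, as the rule requires, and the outer libraries stand apart from each other at rank 14 (169 and 57.4 CPM).

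Below the leading members, ranks 5 to 9 varied in how close their outer libraries lay. Ranks 5 and 7 were lower in outer replicate 1, at 777 against 1101 CPM and at 286 against 429 CPM. The outer libraries of the other 3 lay closer together. The member ranked 6 had 398 and 436 counts in inner and 2030 and 2047 in outer pericarp, a ratio of 5.15. At rank 8 there were 208 and 189 counts in inner against 1658 and 1712 in outer pericarp, a ratio of 8.93. The member ranked 9 lay further above its inner level, with 86 and 96 counts against 1104 and 1111 and a ratio of 12.8. At ranks 6, 8 and 9 the outer libraries differed by far less than the gap between the tissues. The next 4 ranks, from 10 to 13, ran from 200 down to 127 CPM in outer pericarp, with ratios of 4.03 to 8.55.

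Ratios above 16 were found in 20 of the members, counting those with no reads in inner pericarp. A further 20 had ratios of 8 to 16, 33 had 5 to 8 and 32 had 4 to 5. The median ratio, with inner pericarp counted at no less than 3 counts, was 6.68. Most members were still present in inner pericarp: 25 had a mean of at least 5 CPM there, 54 had 1 to 5 CPM and 26 had less than 1 CPM. In 5 members both inner libraries had 0 counts, which allows a level of up to 0.262 CPM, and in 4 others 1 of the inner libraries had 0.

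High ratios with outer libraries less than 1.3-fold apart were seen at several levels. At rank 19, 24 and 20 counts in inner pericarp stood against 401 and 397 in outer pericarp, a ratio of 19.1. The member ranked 20 had 21 and 29 counts against 443 and 338, a ratio of 16.4. The member ranked 68 had 3 and 2 counts against 58 and 57. Its ratio of 24.1 rests on 5 inner counts, and a member at rank 30 with 10 and 6 counts against 242 and 174 had a ratio of 27.1.

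The members with the greatest ratios of all were mostly high in 1 outer library. Of the 9 with the highest ratios, from 27.3 to 66.2 with the floor in inner pericarp, 6 had at least 4 times more CPM in outer pericarp replicate 1 than in replicate 2. Among all members this held for 7, while it held for 9 of the 14244 with at least 5 CPM in outer pericarp (0.0632%). A high value in either library raises the outer mean and so favours entry into the set, and that part of the excess was not tested. None of the 65 members with ratios under 8 was in this group of 7, which had ratios of 12.0 upwards.

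Ach00g332071.1 (identifier group 00, coding length 663 bases, rank 21) was the most abundant of the 7 and had the highest ratio among members at 20 CPM or more. It had 10 and 3 counts in inner pericarp, 654 in outer pericarp replicate 1 and 102 in replicate 2. The outer libraries were at 115 and 19.5 CPM, 5.90-fold apart with a counting interval of 4.79 to 7.35, so the gap was wider than counting error. From the summed counts the outer level was 61.1 times the inner level (35.5 to 115). Its log2 fold change was 5.84 ± 0.86 (SE, edgeR), 3.95 when outer pericarp replicate 1 was left out and 6.63 when replicate 2 was.

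The other 6 had almost no reads in inner pericarp and few in outer pericarp replicate 2. The member ranked 47 had 0 and 0 inner counts, 178 in outer replicate 1 and 11 in replicate 2. At rank 57 the counts were 1 and 1 against 137 and 15, and at rank 58 they were 0 and 1 against 139 and 13. These 3 were therefore 8.41 to 14.9 times higher in outer replicate 1 than in replicate 2.

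The member ranked 61 had the widest gap, with 0 and 0 inner counts against 134 and 3 outer counts, a 41.1-fold difference between the outer libraries (interval 13.8 to 202). The member ranked 70 had 0 and 0 against 112 and 7. At rank 71 the counts were 5 and 5 against 105 and 13. All 6 were under 5 CPM in outer replicate 2, and the 7 members lay in 7 different identifier groups. With inner pericarp counted at no less than the floor of 0.262 CPM, outer replicate 2 alone was at least 4 times the inner mean in 5 of the 7 and fell short at ranks 61 and 71. Only 3 members showed the opposite, at least 4 times higher in outer replicate 2, among 5 such gene models at 5 CPM or more. These 3, at ranks 81, 93 and 105, had lower ratios of outer over inner, at 4.51, 8.26 and 6.38.

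**Figure D3:**
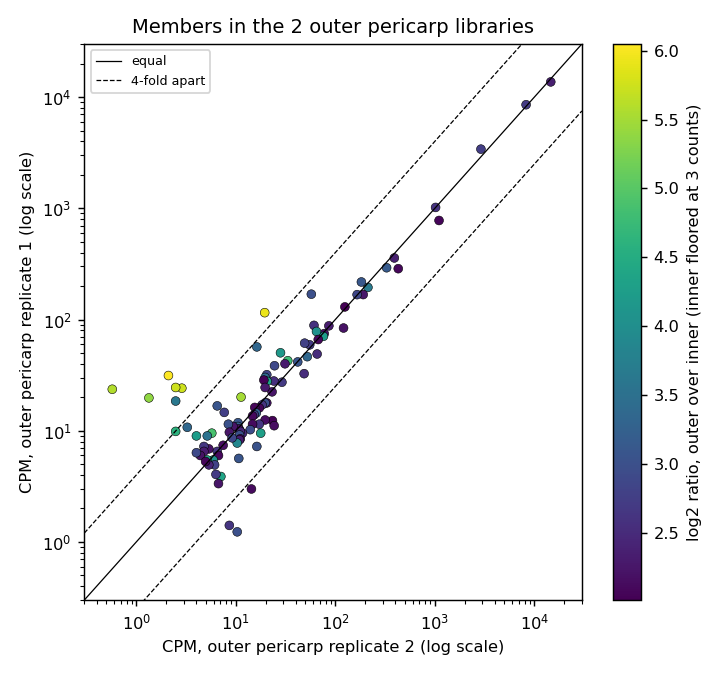
CPM of the 105 members in outer pericarp replicate 1 against replicate 2, on log axes, coloured by the log2 ratio of outer over inner pericarp with inner counts floored at 3. The leading members follow the line of equal levels. Above the upper dashed line of a 4-fold difference lie 7 members, 6 of them under 5 CPM in replicate 2. Most of the 7 are in the colours of the highest ratios.

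Over the whole set, 19 members (18.1%) differed at least 2-fold between the outer libraries, 13 of them higher in replicate 1 and 6 higher in replicate 2. The same was true of 1.59% of all gene models at 5 CPM or more in outer pericarp. At 5 to 20 CPM the shares were 25% of 64 members and 2.82% of 6798 gene models, and at 20 CPM or more they were 7.32% of 41 members and 0.457% of 7446 gene models. The median absolute log2 ratio between the outer libraries was 0.36 for members and 0.22 for all gene models at 5 CPM or more. A high value in either outer library favours entry into the set, and its part in these differences was not tested. In the corresponding set of 100 gene models enriched at least 4-fold in inner pericarp, 0 differed 2-fold between the inner libraries, where 0.179% of gene models at 5 CPM or more did.

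Within inner pericarp, the members split in another way. Each of the top 4 was higher in inner pericarp replicate 2 than in replicate 1. The ratios were 1.32 (counting interval 1.29 to 1.35) for Ach00g326791.1, 1.43 (1.39 to 1.48) for the second member, 1.41 (1.34 to 1.49) for the third and 1.40 (1.28 to 1.54) for the member ranked 4. The inner libraries otherwise agreed closely: of 3183 gene models at 50 CPM or more in inner pericarp, 11 (0.346%) differed at least 1.3-fold, and 4 of the 7 members at that level were among them. Of the 11, 6 were higher in inner replicate 2 and 5 in replicate 1. The 6 included 2 gene models outside the set, with ratios of outer over inner of 1.01 and 3.73. At 100 CPM or more, 4 of 1478 gene models differed at least 1.3-fold, and all 4 were the top 4 members. This threshold was set after the values were seen.

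The other members did not share this shift when summed. Over the remaining 101 members together, the level in inner replicate 2 was 0.928 times that in replicate 1, against 1.36 times for the top 4 together. The member ranked 5 weighs most in the sum of the others, with 1339 and 1199 counts. Among the 9 other members at 20 CPM or more in inner pericarp the ratio ranged from 0.816 to 1.13. Single members at lower levels had few inner counts, and many of their counting intervals are wide. Some excluded the ratios of the top 4, as at rank 18 (0.494 to 0.986). Others included them, as at rank 20 (0.745 to 2.49). In outer pericarp the top 4 differed little between libraries, with ratios of replicate 1 over replicate 2 of 0.937 to 1.17. Inner pericarp replicate 1 is also the library with 0 counts of Ach00g022471.2. When that gene model is kept in the totals, the inner replicate 2 levels fall by construction, and of the members at 50 CPM or more only 1 then differs 1.3-fold, the member ranked 5, which is lower in replicate 2. Whether both features of that library are linked was not tested.

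**Figure D4:**
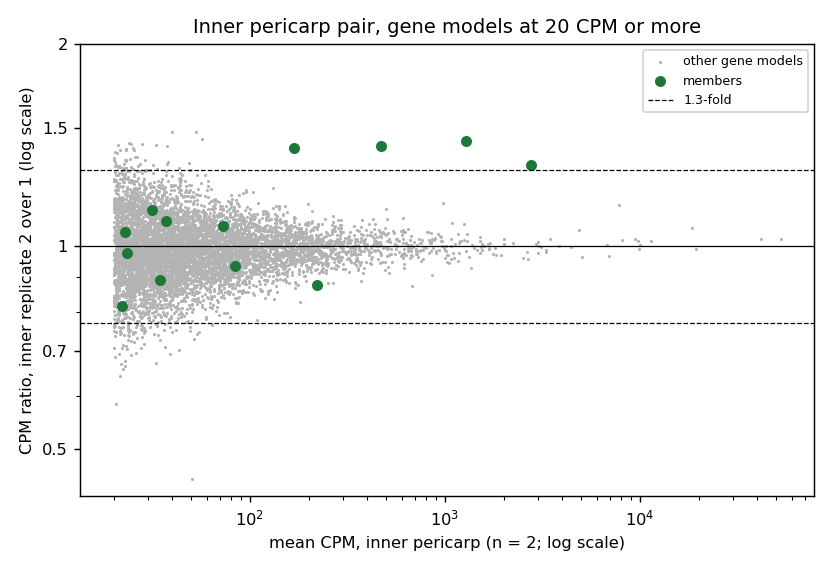
Ratio of inner pericarp replicate 2 over replicate 1, on a log axis, against mean CPM in inner pericarp for gene models at 20 CPM or more; green points are the 13 members at that level. The 4 leading members lie above the dashed line at 1.3-fold, at 1.32 to 1.43, while the other 9 lie between 0.816 and 1.13.

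Position and length were not used to choose the members. The identifiers carry a group field and a running number, and 9 members (8.57%) had a number directly next to that of another member, in 4 runs. In the inner-enriched set 6 of 100 did. The longest run, in identifier group 23, held 3 consecutive members at ranks 15, 5 and 7, with coding lengths of 1587, 1578 and 483 bases. Their levels in outer pericarp were 102 ± 26.2, 939 ± 229.6 and 358 ± 100.6 CPM (SD, n = 2), and their ratios of outer over inner were 4.63, 4.24 and 4.27. All 3 were lower in outer replicate 1 than in replicate 2, at 0.694, 0.705 and 0.668 of its level. The 3 gene models thus differed in level while their ratios between outer libraries lay close together. Their ratios between tissues were also close. The rule admits none under 4, and 32 members lay at 4 to 5, so nothing is read from that. How reads that match several copies were counted is not given in the labels, so levels of neighbouring gene models with near-identical sequence would be uncertain.

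The other runs were pairs at low levels. One pair in group 00 had 22 and 25 inner counts against 101 and 107 outer counts in the first gene model, and 38 and 45 against 227 and 163 in the second. The other pair in group 00 had 17 and 17 against 65 and 77, and 9 and 5 against 52 and 57. In group 21 the neighbours differed from each other: the first had 17 and 75 counts in outer pericarp, and the second 39 and 28. Of 61 gene models at 5 CPM or more in a tissue that adjoined a member without being one, 10 (16.4%) were at least 2-fold higher in outer pericarp, and 70.5% were higher there at all. Over all 14744 gene models outside the set at that level, the shares were 3.15% and 57.1%.

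Members were found in 26 of the 30 identifier groups. Group 00, the largest, held 17 of them, 0.708% of its 2402 gene models at 5 CPM or more in outer pericarp. The highest shares were 1.90% in group 09 and 1.80% in group 25, each with 6 members, and 1.53% in group 06 with 8. Groups 04, 14, 17 and 28 held 0, of 250 to 405 gene models each.

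The median coding length of the members was 1068 bases, against 1224 for all gene models at 5 CPM or more in outer pericarp and 927 for the inner-enriched set. Under 500 bases lay 18 members (17.1%, against 10.3%), and at 2000 bases or more 9 (8.57%, against 21.4%). At 500 to 1000 and at 1000 to 2000 bases the shares were 28.6% and 45.7%, against 27.6% and 40.7%. Over all gene models, length also moved with the outer libraries. The median log2 ratio of outer replicate 1 over replicate 2 fell from 0.11 for all gene models under 500 bases through 0.01 and -0.12 to -0.28 for those of 2000 bases or more. For members of the same 4 classes it was 0.16, 0.29, -0.11 and 0.03, with no steady course. With each library's trend with coding length removed, the rule gave 105 gene models, of which 103 were members. The part of this trend in the lengths of the members was not tested.

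How often the 4-fold difference was met again in the libraries left out of a choice was read from single pairs. Gene models chosen by the same rule from 1 inner and 1 outer library numbered 126 to 150 over the 4 possible pairs. In the remaining pair of libraries, 46.0% to 64.7% of them again reached 4-fold and 75.3% to 92.1% reached 2-fold. Between 1 and 7 of them were not higher in outer pericarp there at all. The lowest shares came from the choice on replicate 2 of both tissues, read in replicate 1 of both. Each reading compares 1 library with 1 library and has no replicate check. The libraries of a tissue may come from the same fruit, so the remaining pair may not be independent of the choice.

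Across the whole table, edgeR's quasi-likelihood test called 1719 of 18359 gene models higher in outer pericarp (adjusted p under 0.05), which is 9.36%. Of the members, 101 passed the filter on low counts and 101 were called. The libraries did not overlap, with outer pericarp higher, in 33.7% of the gene models tested, and in all members by the rule. The rule used the same contrast, and low members passed the filter through the tissue where they were high, so nothing is read from this count. The 4 members that were not tested had 45 to 134 counts in 1 outer library and 3 to 8 in the other. Members were 5.88% of the gene models called in this direction.

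Membership depended on thresholds that many gene models lay close to. The lowest ratios inside were 4.03 and 4.08, and the highest just outside were 3.998 and 3.986. Between 3.5 and 4 lay 45 gene models, and between 4 and 4.5 lay 16 members. The lowest outer mean inside was 5.01 CPM. Just 3 gene models met the level and ratio but had overlapping libraries. In 72 members the lower outer library was at least 4 times the higher inner library, and in 101 it was at least 2 times.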

How the data were processed

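Per the labels, total RNA from inner and outer pericarp was sequenced on an Illumina HiSeq 2000. The authors deposited unnormalised read counts for each gene model and library, with a length in bases that was a multiple of 3 in 100% of gene models and is called coding length. The submitters' processing notes name DESeq without a role. The aligner, the counter, its strand setting, and the build and annotation are not given in the labels or headers. No genome or name table was used, so lists of skin, chloroplast, seed and anthocyanin genes were not looked up.

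CPM were computed from library totals without Ach00g022471.2, with Python 3.11.15. Whole-table tests used R 4.3.3 and edgeR 4.0.16 with filterByExpr, TMM, glmQLFit and glmQLFTest. Tissue was the only term, over 4 libraries, with Benjamini-Hochberg adjustment over all gene models tested. This test recovered planted changes in a check on simulated counts. The simulation gave all gene models and libraries the same spread, so it does not cover gene models whose outer libraries differ widely. Alternatives used DESeq2 1.42.0, limma-voom (limma 3.58.1), other scalings and filters, a lowess fit removing each library's trend with coding length, and leaving out each library. Standard errors come from the F statistic. Replicate numbers follow deposit order and pair nothing. The members and lists were chosen with earlier results of these data known. The 2 named members are the one with the highest mean CPM in outer pericarp and the one with the highest ratio of summed counts at 20 CPM or more; others are given by rank.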

Additional observations from a re-analysis of the deposited data

How the results depend on the processing

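The count of gene models called higher in outer pericarp (1719) was 158 with no low-count filter (2886 at an unadjusted p under 0.05), 776 with DESeq2 and 739 with the inner libraries summed. It ran from 634 to 1991 when each library was left out; in those fits the common biological coefficient of variation was 12.7% without an inner library and 3.11% or 3.13% without an outer one, because 1 pair supplies all the spread. Members called (101) fell to 46 with no low-count filter. In the other 12 alternatives they numbered 96 to 105. The set of 105 became 214 at 2 CPM or more, 198 at 3-fold and 40 at 8-fold. It had 72 to 129 gene models in the other 9 alternatives that were run. With Ach00g022471.2 kept in the totals, which is 1 of these 9, it had 82, all of them members. Of the 123 and 129 gene models found without outer pericarp replicate 1 and replicate 2, 88 and 88 were members. The log2 fold change of Ach00g332071.1 was called by edgeR and not by limma-voom (adjusted p = 0.0541) or by edgeR with no low-count filter (adjusted p = 0.176). At 10 CPM or more, 12 members (of 19) were 2-fold apart between the outer libraries. Members next to another (9) became 15 with numbers up to 5 apart, 17 at 3-fold and 0 at 8-fold. Alternatives for the difference within the outer pair and the inner pair were chosen after seeing the data: 7 members were at least 4-fold higher in outer replicate 1, 8 with TMM-scaled totals, and the 4 members at 1.3-fold between inner libraries became 1, a different member at rank 5, with Ach00g022471.2 kept in the totals. Where no cause is named, the cause was not tested. No paired analysis was possible because the labels number no replicates. With few inner counts, high ratios are imprecise at this depth.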
